A study of Mus musculus with 40 samples.

Results

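The effect of oral antibiotics in adolescents under morphine was read from 10 of the 40 libraries of the series, chosen by their labels alone. Of these, 5 were labelled adolescent Abx Morphine and 5 adolescent H2O Morphine. All were made from polyadenylated RNA of wild-type female C57BL/6J mice, a standard inbred strain, whose treatment began on postnatal day 25. Abx Morphine mice received antibiotics by mouth, while H2O Morphine mice stayed on plain water. Both groups were injected under the skin with morphine, at 15 mg/kg over 5 days. Morphine is thus common to them, and by the labels the drink is what differs. The adolescent Abx Saline and H2O Saline groups and the adult Abx Morphine and H2O Morphine groups, which began on postnatal day 55, each hold 5 further libraries and are used for comparison only. The labels give the tissue as brain, while the series title speaks of the medial prefrontal cortex. Whether each library is 1 mouse is not stated, so the p-values describe the spread among these libraries, which may be technical.

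The medial prefrontal cortex holds excitatory projection neurons and local inhibitory neurons that take part in choosing, valuing and inhibiting actions, including the pursuit of opioids. Morphine acts on the mu opioid receptor, which couples to inhibitory G proteins and lowers cyclic AMP. Oral antibiotics thin out gut bacteria, whose products can reach the brain through the blood. The comparison asks what antibiotics change in this cortex when morphine is already given.

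Expression is given as CPM, the reads of a gene set against the library total and scaled between libraries by TMM, a normalization that lines up the bulk of the genes. CPM is not divided by gene length, so levels of different genes are not compared. Library totals ran from 9263229 to 10430027 counts in Abx Morphine and from 9504498 to 12098769 counts in H2O Morphine, so 3 counts, the limit that a count of 0 allows, stood for 0.248 to 0.324 CPM per library. Among the 1000 most variable genes, the first principal component of these 10 libraries held 27.25% of the variance. All 5 Abx Morphine libraries lay above all 5 H2O Morphine libraries on it, with Abx Morphine replicate 5 nearest to the other group, at -1.82 against -16.47 to -5.75. The second component, with 13.19%, set replicate 5 of both groups apart, at -12.22 in Abx Morphine and -15.76 in H2O Morphine. Sums of defining marker genes were 9878.9 to 10415.3 CPM in Abx Morphine and 10130.9 to 10520.2 CPM in H2O Morphine for excitatory neurons. For choroid plexus, a tissue outside the cortex, and ependymal cells, 4 of 12 listed markers were tested. Their sums were 6.56 to 8.22 CPM in Abx Morphine and 7.6 to 12.7 CPM in H2O Morphine.

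Many genes differed by small amounts between Abx Morphine and H2O Morphine. The quasi-likelihood F test of edgeR, fitted to all 40 libraries, called 1351 of 17880 tested genes at an adjusted p under 0.05, or 7.56%. Of these, 633 were higher in Abx Morphine (3.54% of all tested) and 718 were lower (4.02%). With RLE size factors, the scaling of DESeq2, 721 were higher and 645 lower, so the balance of directions over all genes depended on the scaling. Without replicate 5 of both groups, an alternative chosen after seeing the data, 854 were higher and 996 lower. The 5 Abx Morphine libraries lay wholly above or wholly below the 5 H2O Morphine libraries for 1058 genes, or 5.92% of those tested. The median size of a called log2 fold change was 0.35, with quartiles of 0.27 and 0.52, and 978 calls (72.4%) were under 0.5, which is a 1.41-fold difference. Only 90 calls reached a log2 fold change of 1 in size, 71 higher and 19 lower, and 87 of these had a mean under 10 CPM. Over all tested genes the median log2 fold change was -0.01.

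How often a gene was called depended on its level. The share called was 1.45% under 1 CPM and 4.94% between 3 and 10 CPM. It was 11.4% between 30 and 100 CPM, and 11.5% from 100 CPM. Genes called lower outnumbered those called higher from 10 CPM upwards, and the reverse held below 10 CPM. Genes called higher had a median GC content of 53.8% and a median exon length of 4966 bases, against 46.8% and 4724 bases in genes called lower and 50.1% and 3929 bases in all tested genes. The part of base composition and length in the calls was not separated beyond an offset for both, under which 593 genes were called higher and 709 lower.

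**Figure D1:**
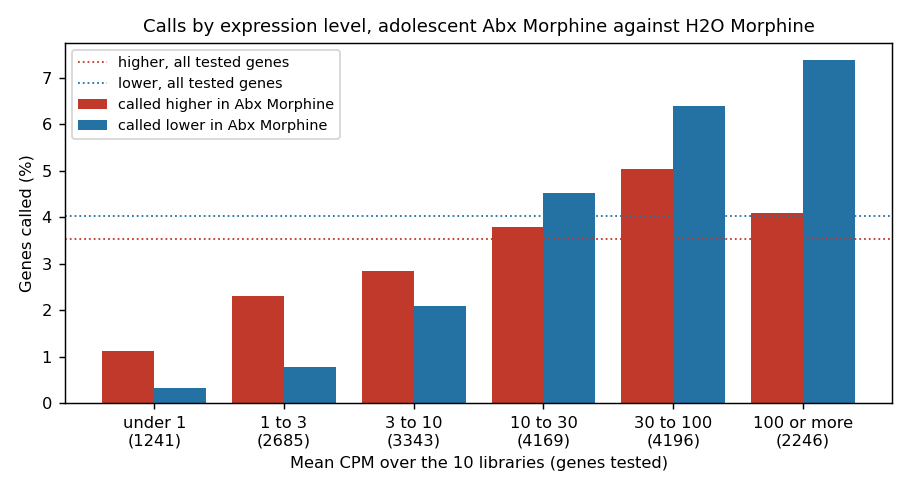
Share of tested genes called higher (red) or lower (blue) in adolescent Abx Morphine against H2O Morphine, in percent, by mean CPM over the 10 libraries, with the number of tested genes in brackets and the share over all tested genes dotted. The share called lower reaches 7.39% in genes of 100 CPM or more, where 4.1% were called higher.

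The calls rested unevenly on single libraries. Without Abx Morphine replicate 2 there were 317 higher and 324 lower calls, and without Abx Morphine replicate 3 there were 332 and 384. Leaving out Abx Morphine replicate 4 gave 467 and 455 calls, H2O Morphine replicate 2 gave 441 and 466, and H2O Morphine replicate 3 gave 474 and 478. Without Abx Morphine replicate 5 the counts were 1037 and 1223. The same call was made without each of the 10 libraries in turn for 475 genes (230 higher, 245 lower). Under those 10 settings and 10 other analyses it was made for 268 genes (109 higher, 159 lower), or 19.8% of calls, and a call is said to hold throughout where it is among these. The genes described below are mostly of that kind, and others are marked. Counts in brackets after a list are its calls with the named library left out, and with 3 surrogate variables where these moved them by over 1.5 times. With 3 surrogate variables as covariates the counts were 297 and 365, and with limma-voom they were 1176 and 1419.

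Calls among protein folding genes were nearly all lower. Of 55 tested genes for folding in the endoplasmic reticulum and the unfolded protein response, 15 were lower and 1 was higher in Abx Morphine, with a median log2 fold change of -0.15 and 40 negative and 15 positive fold changes in all. Left-out libraries moved the number of calls between 12 (without Abx Morphine replicate 2) and 23 (without Abx Morphine replicate 5). The endoplasmic reticulum folds secreted and membrane proteins, and its chaperones are induced together when unfolded chains pile up. Calreticulin, Calr, a calcium-binding chaperone for glycoproteins, had 215.7, 175.5, 203.7, 195.0 and 259.1 CPM in Abx Morphine, against 282.7, 312.6, 296.4, 294.4 and 310.5 CPM in H2O Morphine. All 5 Abx Morphine libraries were below all H2O Morphine libraries, with replicate 5 the highest of the Abx Morphine group, and the gene had a log2 fold change of -0.51 ± 0.07 (SE; edgeR adjusted p = 1.39e-06). The Hsp70 of this compartment, Hspa5 (also called BiP), had 152.8, 132.6, 144.3, 135.5 and 165.7 CPM in Abx Morphine, against 202.8, 211.7, 196.6, 201.0 and 207.3 CPM in H2O Morphine, again without overlap (log2 fold change of -0.48 ± 0.07 SE, edgeR adjusted p = 2.16e-05).

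Of the protein disulfide isomerases in that list, which form and shuffle disulfide bonds, 3 were called lower. Pdia6 had a log2 fold change of -0.5 ± 0.07 (SE; edgeR adjusted p = 4.33e-06), Pdia3 of -0.41 ± 0.07 (adjusted p = 4.66e-05) and Pdia4 of -0.53 ± 0.1 (adjusted p = 0.000706), by the same test. Pdia6 overlaps the antisense gene Atp6v1c2, whose reads cannot be told apart without a stated strand setting. The collagen chaperone Serpinh1 was at 9.86 to 13.7 CPM in Abx Morphine, against 17 to 27.1 CPM in H2O Morphine, with a log2 fold change of -0.82 ± 0.12 (SE; edgeR adjusted p = 2.12e-05). Sdf2l1, a partner of BiP, was at 3.91 to 5.98 CPM in Abx Morphine, against 7.2 to 9.86 CPM in H2O Morphine. The Hsp90 of the compartment, Hsp90b1, fell by 0.38 on the log2 scale, and malectin, Mlec, a reader of newly attached glycans, by 0.35. All of these calls held throughout, while those of the glycoprotein chaperone Canx (log2 fold change of -0.29 ± 0.06 SE, edgeR adjusted p = 0.00242) and the transcription factor Xbp1 (log2 fold change of -0.32 ± 0.06 SE, edgeR adjusted p = 0.00107) were lost with 3 surrogate variables. The single gene called higher was Cdnf, a secreted relative of the folding factor Manf, at 1.86 to 2.42 CPM in Abx Morphine, against 0.501 to 1.18 CPM in H2O Morphine. Atf4, a transcription factor of the stress response that acts through translation, was not called, with a log2 fold change of -0.19 ± 0.08 (SE; edgeR adjusted p = 0.131), and neither was Ddit3, which promotes cell death under that stress (log2 fold change of -0.22 ± 0.13 SE, edgeR adjusted p = 0.32). Among 69 genes for the translocon, signal peptidase and glycosylation, 6 were lower and 0 higher (3 without Abx Morphine replicate 2, 12 without Abx Morphine replicate 5 and 3 with 3 surrogate variables), among them Srpr, a subunit of the receptor that docks ribosomes (log2 fold change of -0.27 ± 0.06 SE, edgeR adjusted p = 0.00406).

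Chaperone promoters are known to carry the ER stress element, CCAAT and CCACG with 9 bases between them, which ATF6 and its partner NF-Y read. The stretches below are the matches in promoters of genes called lower, shown so that the element can be read in place. The search fixed the letters and the spacing. They come from RefSeq (GRCm38.p6), read along the gene's own strand, with the ends of each match in capitals; where the match lies on the opposite strand it reads CGTGG then ATTGG.
Calr, chr8:84847065-84847113, minus strand: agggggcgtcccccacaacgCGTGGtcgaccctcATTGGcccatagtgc
Pdia6, chr12:17266471-17266519, plus strand: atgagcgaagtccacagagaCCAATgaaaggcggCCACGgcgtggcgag
Hspa5, chr2:34772005-34772053, plus strand: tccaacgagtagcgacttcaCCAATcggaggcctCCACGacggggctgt
Canx, chr11:50325790-50325838, minus strand: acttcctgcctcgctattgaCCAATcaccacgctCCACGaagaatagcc
Adcy3, chr12:4133231-4133279, plus strand: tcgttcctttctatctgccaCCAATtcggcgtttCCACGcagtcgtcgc
Hsp90b1, chr10:86705523-86705676, minus strand: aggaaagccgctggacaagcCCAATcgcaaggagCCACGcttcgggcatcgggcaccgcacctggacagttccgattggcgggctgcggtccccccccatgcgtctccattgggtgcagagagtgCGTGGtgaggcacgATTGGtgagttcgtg

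Promoters of 250 bases before to 50 after the start were found for 12025 tested genes, and 19 of them (0.158%) held the element on either strand. It was present in 6 of 539 promoters of genes called lower (1.11%) and in 0 of 460 of genes called higher. In the endoplasmic reticulum list 9 of 48 promoters held it, or 18.8%. Adcy3, an adenylyl cyclase that makes cyclic AMP, is the one of the 6 that is no chaperone; its call (log2 fold change of -0.29 ± 0.08 SE, edgeR adjusted p = 0.0248) was kept in 7 of the 10 fits that left out 1 library. The E-box CACGTG stood in 13.5% of promoters of genes called lower, 10.4% of those called higher and 11.1% of all. The cAMP response element TGACGTCA stood in 4.64% of promoters of genes called lower, 2.61% of those called higher and 3.4% of all. A match in these windows is a description of letters and not evidence of binding.

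Cytosolic chaperones and genes of cholesterol synthesis were also called mostly lower. Of 67 cytosolic heat shock proteins and co-chaperones, 14 were lower and 1 was higher (11 to 21 when 1 library was left out). Hsph1, a nucleotide exchange factor that recharges Hsp70, had 211.3, 148.7, 170.5, 188.3 and 246.8 CPM in Abx Morphine, against 295.1, 293.4, 293.7, 264.2 and 282.5 CPM in H2O Morphine. Its 2 groups did not overlap, with a log2 fold change of -0.57 ± 0.09 (SE; edgeR adjusted p = 8.53e-05). Stip1, the adaptor between Hsp70 and Hsp90, fell by 0.34, Hspa4 by 0.38 and Ppid, a cyclophilin that binds Hsp90, by 0.46 on the log2 scale, all holding throughout. Hspa8, the constitutive Hsp70, fell by 0.32, though reads of near-identical copies may be split differently. In the cholesterol pathway, which neurons and glia run locally because cholesterol does not cross into the brain, 12 of 28 genes were lower and 2 higher (8 with 3 surrogate variables). Stard4, a carrier of cholesterol between membranes, was at 19.5 to 24.4 CPM in Abx Morphine, against 30.1 to 36.7 CPM in H2O Morphine (log2 fold change of -0.61 ± 0.1 SE, edgeR adjusted p = 6.24e-05). In contrast the 2 higher genes were Srebf1, the regulator of fatty acid synthesis, and an enzyme of cholesterol synthesis itself. Srebf1 was at 48.1 to 59 CPM in Abx Morphine, against 37.4 to 46.5 CPM in H2O Morphine.

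**Figure D2:**
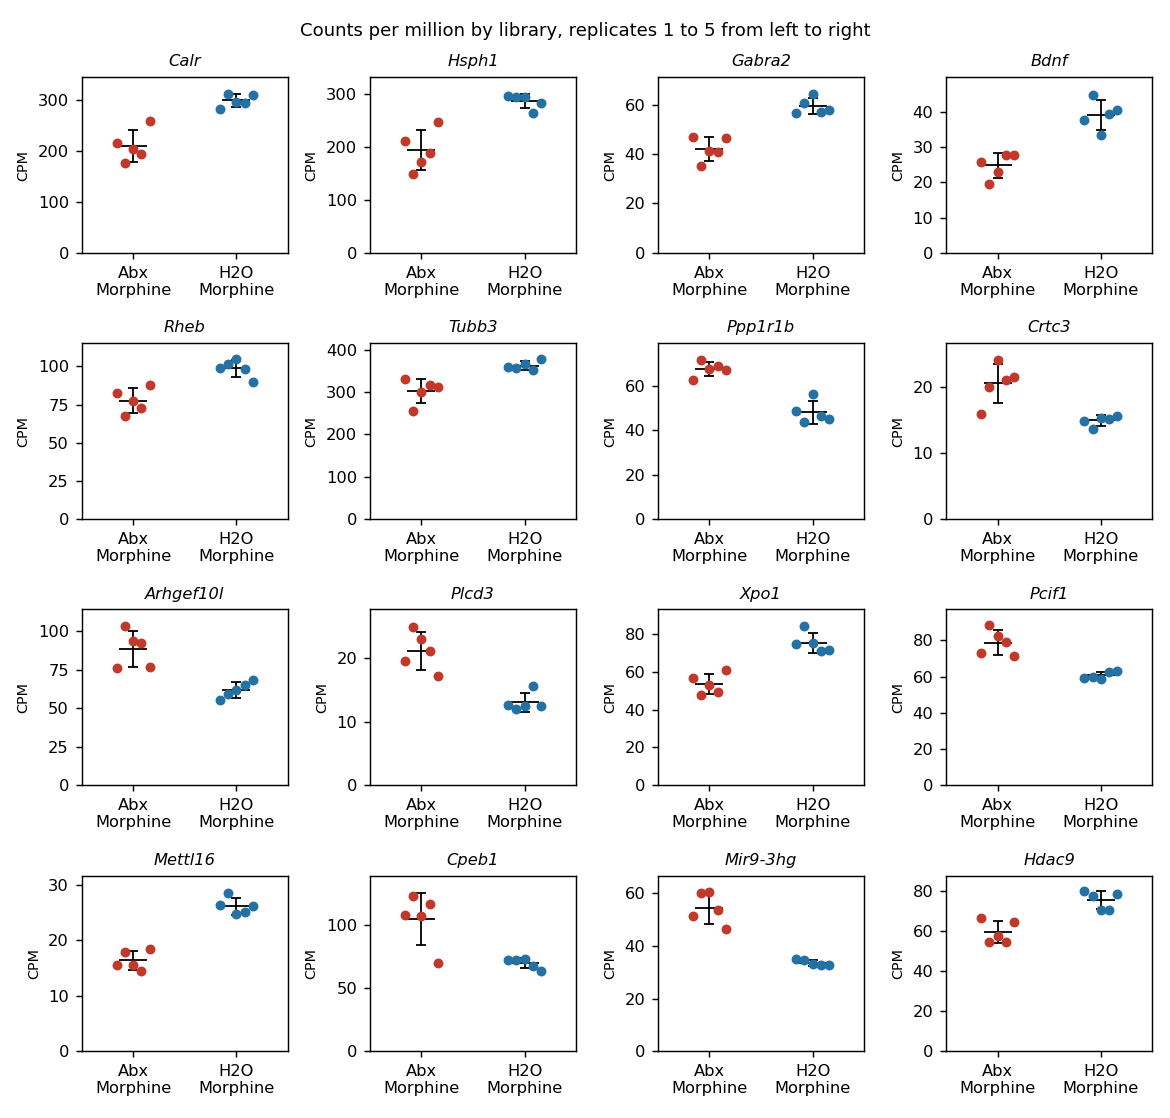
CPM of 16 genes in each library, with replicates 1 to 5 from left to right, adolescent Abx Morphine in red and H2O Morphine in blue, and bars for the mean ± SD of 5 libraries. Abx Morphine replicate 5 is the Abx Morphine library nearest to the H2O Morphine range for Calr, at 259.1 CPM, and for Cpeb1, at 69.6 CPM.

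Among neuronal genes more were called lower than higher. Counting each gene once, 75 of 933 members of the 25 neuronal lists were lower (8.04%) and 20 were higher (2.14%), beside 4.02% and 3.54% of all tested genes. More were lower also with RLE size factors (25 higher, 66 lower), with the GC and length offset (8 higher, 79 lower) and without replicate 5 of both groups (33 higher, 96 lower). The median log2 fold change over these 933 genes was -0.05. Neuronal list members had a median of 64 CPM, a range in which more of all genes were called lower. In bulk RNA a smaller number of cells of a type and less RNA per cell cannot be told apart.

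The few calls among GABA-A and metabotropic glutamate receptors were all lower. GABA-A receptors are chloride channels of 5 subunits. All 13 tested subunits had negative fold changes, 12 of them with RLE size factors, with 2 called, or 15.4% (5 without Abx Morphine replicate 5). Of all tested genes 7.56% were called, and 11.5% of those from 100 CPM, where the median of this list lay (115.8 CPM). Its mean log2 CPM by library, minus the mean over the 10 libraries, overlapped between groups. It was -0.275 to 0.065 in Abx Morphine and -0.033 to 0.19 in H2O Morphine. Gabra2, the alpha subunit found at axon initial segments, had 46.9, 35.1, 41.1, 40.7 and 46.5 CPM in Abx Morphine, against 56.8, 60.5, 64.4, 57.2 and 57.7 CPM in H2O Morphine. Every Abx Morphine library was lower, with a log2 fold change of -0.5 ± 0.07 (SE; edgeR adjusted p = 7.31e-06). Gabrb1 was at 108.8 to 151.0 CPM in Abx Morphine, against 167.4 to 190.2 CPM in H2O Morphine (log2 fold change of -0.48 ± 0.11 SE, edgeR adjusted p = 0.00598). The 12 genes for GABA synthesis, transport and GABA-B receptors had 0 calls. All 7 tested metabotropic glutamate receptors, which signal through G proteins, had negative fold changes (6 with RLE size factors) and 3 were called. Grm7, a presynaptic brake on release, was at 50.6 to 60.2 CPM in Abx Morphine, against 64.9 to 69.9 CPM in H2O Morphine (log2 fold change of -0.27 ± 0.07 SE, edgeR adjusted p = 0.0107). Grm3 was at 44.3 to 59.5 CPM in Abx Morphine, against 61.8 to 71.1 CPM in H2O Morphine, and its call was lost with 3 surrogate variables (log2 fold change of -0.48 ± 0.1 SE, edgeR adjusted p = 0.00221). Grm8, another presynaptic member, lost its call without Abx Morphine replicate 2 (log2 fold change of -0.52 ± 0.14 SE, edgeR adjusted p = 0.0164).

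Among 34 ionotropic glutamate receptors and auxiliary subunits 2 were called higher and 2 lower (2 without H2O Morphine replicate 5 and 0 with 3 surrogate variables), or 0 higher and 3 lower with the GC and length offset. Grin1, the obligatory NMDA receptor subunit, had a log2 fold change of 0.22 ± 0.06 (SE; edgeR adjusted p = 0.00911), and overlaps its antisense gene Grin1os; its call was lost with 3 surrogate variables and with the GC and length offset. Shisa9, an auxiliary subunit of AMPA receptors, had a log2 fold change of -0.33 ± 0.07 (SE; edgeR adjusted p = 0.00247), a call lost with 3 surrogate variables. Calls in both directions also appeared among 45 voltage-gated potassium channel subunits, where 4 were higher and 4 lower (1 without Abx Morphine replicate 2, 12 without Abx Morphine replicate 5 and 4 with 3 surrogate variables). Kcng1, a silent subunit that modifies other channels, was at 26.1 to 40.3 CPM in Abx Morphine, against 44.9 to 59.4 CPM in H2O Morphine, and lost its call without Abx Morphine replicate 2. Scn2b, a sodium channel beta subunit, fell by 0.3 on the log2 scale (272.9, 227.4, 277.4, 268.1 and 316.0 CPM in Abx Morphine, against 344.2, 350.4, 342.0, 294.4 and 341.4 CPM in H2O Morphine), with overlap between the groups and a call that held throughout. In glutamate transport, Slc1a4, a carrier of serine and alanine, was at 58.6 to 69.1 CPM in Abx Morphine, against 77.2 to 86.8 CPM in H2O Morphine (log2 fold change of -0.31 ± 0.06 SE, edgeR adjusted p = 0.000936), and Slc38a3, a glutamine carrier of astrocytes, at 47.4 to 52.2 CPM in Abx Morphine, against 58.1 to 71 CPM in H2O Morphine (log2 fold change of -0.33 ± 0.08 SE, edgeR adjusted p = 0.00894).

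Genes that respond to neuronal activity were called in 1 direction. Of 45 tested, 7 were lower and 0 higher, with a median log2 fold change of -0.17 (4 without Abx Morphine replicate 2, 12 without Abx Morphine replicate 5 and 3 with 3 surrogate variables). Bdnf, the neurotrophin that strengthens synapses, had 25.7, 19.6, 23, 27.8 and 27.8 CPM in Abx Morphine, against 37.5, 44.8, 33.3, 39.4 and 40.5 CPM in H2O Morphine. The groups did not overlap, with a log2 fold change of -0.66 ± 0.11 (SE; edgeR adjusted p = 5.7e-05). Rheb, the small GTPase that switches on mTOR complex 1, had 82.7, 67.5, 77.2, 72.6 and 87.9 CPM in Abx Morphine, against 98.8, 101.8, 104.7, 98.4 and 89.7 CPM in H2O Morphine. Its groups did not overlap (log2 fold change of -0.35 ± 0.07 SE, edgeR adjusted p = 0.00127). Nptx2, a secreted organiser of AMPA receptors, was at 41.9 to 58.5 CPM in Abx Morphine, against 61.6 to 73.6 CPM in H2O Morphine, and Homer1, a postsynaptic adaptor, at 163.1 to 223.8 CPM in Abx Morphine, against 206.5 to 276.6 CPM in H2O Morphine; the call of Nptx2 was lost with 3 surrogate variables, and that of Homer1 in 3 of the 10 fits that left out 1 library. Neuropeptides and their receptors had 5 lower and 0 higher of 44 (2 without Abx Morphine replicate 2 and 1 with 3 surrogate variables). The peptide precursor Adcyap1 was at 20.6 to 33.6 CPM in Abx Morphine, against 37.2 to 43.6 CPM in H2O Morphine, and the neuropeptide Y receptor Npy1r at 22.3 to 27.9 CPM in Abx Morphine, against 28.2 to 33.7 CPM in H2O Morphine; both were lost with 3 surrogate variables. The mu opioid receptor gene Oprm1 was not called and overlapped between groups, at 3.11 to 3.62 CPM in Abx Morphine, against 3.01 to 5.51 CPM in H2O Morphine (log2 fold change of -0.37 ± 0.22 SE, edgeR adjusted p = 0.306). The delta opioid receptor gene Oprd1 was called lower (log2 fold change of -0.31 ± 0.09 SE, edgeR adjusted p = 0.0319), but kept that call in 4 of the 10 fits that left out 1 library.

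Calls among release and adhesion genes were mostly lower. Of 46 release genes 5 were lower and 0 higher, or 10.9% (2 without Abx Morphine replicate 2 and 3 with 3 surrogate variables), and none of these calls held throughout. Their median level was 396.9 CPM, and 11.5% of all tested genes from 100 CPM were called. The active zone scaffold Ppfia2 had a log2 fold change of -0.34 ± 0.08 (SE; edgeR adjusted p = 0.00306). Among cadherins and protocadherins, 5 of 94 were lower and 1 was higher (3 without Abx Morphine replicate 2 and 3 with 3 surrogate variables). That is 6.38% of them, and of 63 synaptic adhesion molecules 3 were called, all lower, or 4.76% (0 without H2O Morphine replicate 2 and 7 without Abx Morphine replicate 5), beside 7.56% of all tested genes. Cdh10, a cadherin of cortical neurons, was at 37.4 to 58.6 CPM in Abx Morphine, against 58.9 to 70.5 CPM in H2O Morphine, and Pcdh20 at 7.06 to 16 CPM in Abx Morphine, against 17.6 to 19.7 CPM in H2O Morphine, both without overlap and holding throughout. The axonal receptor Nrp1, which binds semaphorins, was at 12.6 to 21.6 CPM in Abx Morphine, against 22.7 to 25.8 CPM in H2O Morphine (log2 fold change of -0.53 ± 0.12 SE, edgeR adjusted p = 0.00514), and its call was lost with 3 surrogate variables. In the opposite direction Lgi3, a secreted protein of the LGI family, had 105.3, 105.0, 117.1, 108.3 and 95 CPM in Abx Morphine, against 70.1, 71.1, 63.7, 80.1 and 80.8 CPM in H2O Morphine (log2 fold change of 0.54 ± 0.1 SE, edgeR adjusted p = 0.000535).

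Calls among genes of the cytoskeleton were mostly lower, though most of these genes were not called. Of 54 tubulins and microtubule-associated proteins, 10 were lower and 2 higher (5 without Abx Morphine replicate 2 and 4 with 3 surrogate variables). Tubb3, the beta tubulin of neurons, had 330.5, 256.3, 299.6, 316.2 and 311.3 CPM in Abx Morphine, against 358.8, 356.5, 366.9, 351.9 and 378.2 CPM in H2O Morphine. It did not overlap between groups (log2 fold change of -0.26 ± 0.06 SE, edgeR adjusted p = 0.00514). Tubb2b, which is abundant in young neurons, was at 43.3 to 56.8 CPM in Abx Morphine, against 62.2 to 78.4 CPM in H2O Morphine (log2 fold change of -0.53 ± 0.11 SE, edgeR adjusted p = 0.00242). Tuba1b, Tubb4b and Tubb2a were also called lower, with log2 fold changes of -0.24 ± 0.05, -0.29 ± 0.07 and -0.3 ± 0.07 (SE), but none of these 3 calls held throughout, and reads of related tubulin genes may be split between them. Actin regulators had 8 lower and 1 higher of 73, and 4 lower and 1 higher with RLE size factors (4 without H2O Morphine replicate 3). Cap1, which recycles actin monomers, was at 155.3 to 197.3 CPM in Abx Morphine, against 199.7 to 226.0 CPM in H2O Morphine, and Lasp1, an actin-binding scaffold, at 145.5 to 184.8 CPM in Abx Morphine, against 179.3 to 206.7 CPM in H2O Morphine. Ablim3, which links actin to LIM proteins, was the member called higher (log2 fold change of 0.29 ± 0.07 SE, edgeR adjusted p = 0.00833). Among cortical layer transcription factors 1 of 46 was called (5 without Abx Morphine replicate 5 and 3 with 3 surrogate variables). It was Neurod6, a factor of excitatory neurons, at 54 to 91.2 CPM in Abx Morphine, against 98.6 to 119.0 CPM in H2O Morphine (log2 fold change of -0.55 ± 0.13 SE, edgeR adjusted p = 0.00891).

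**Figure D3:**
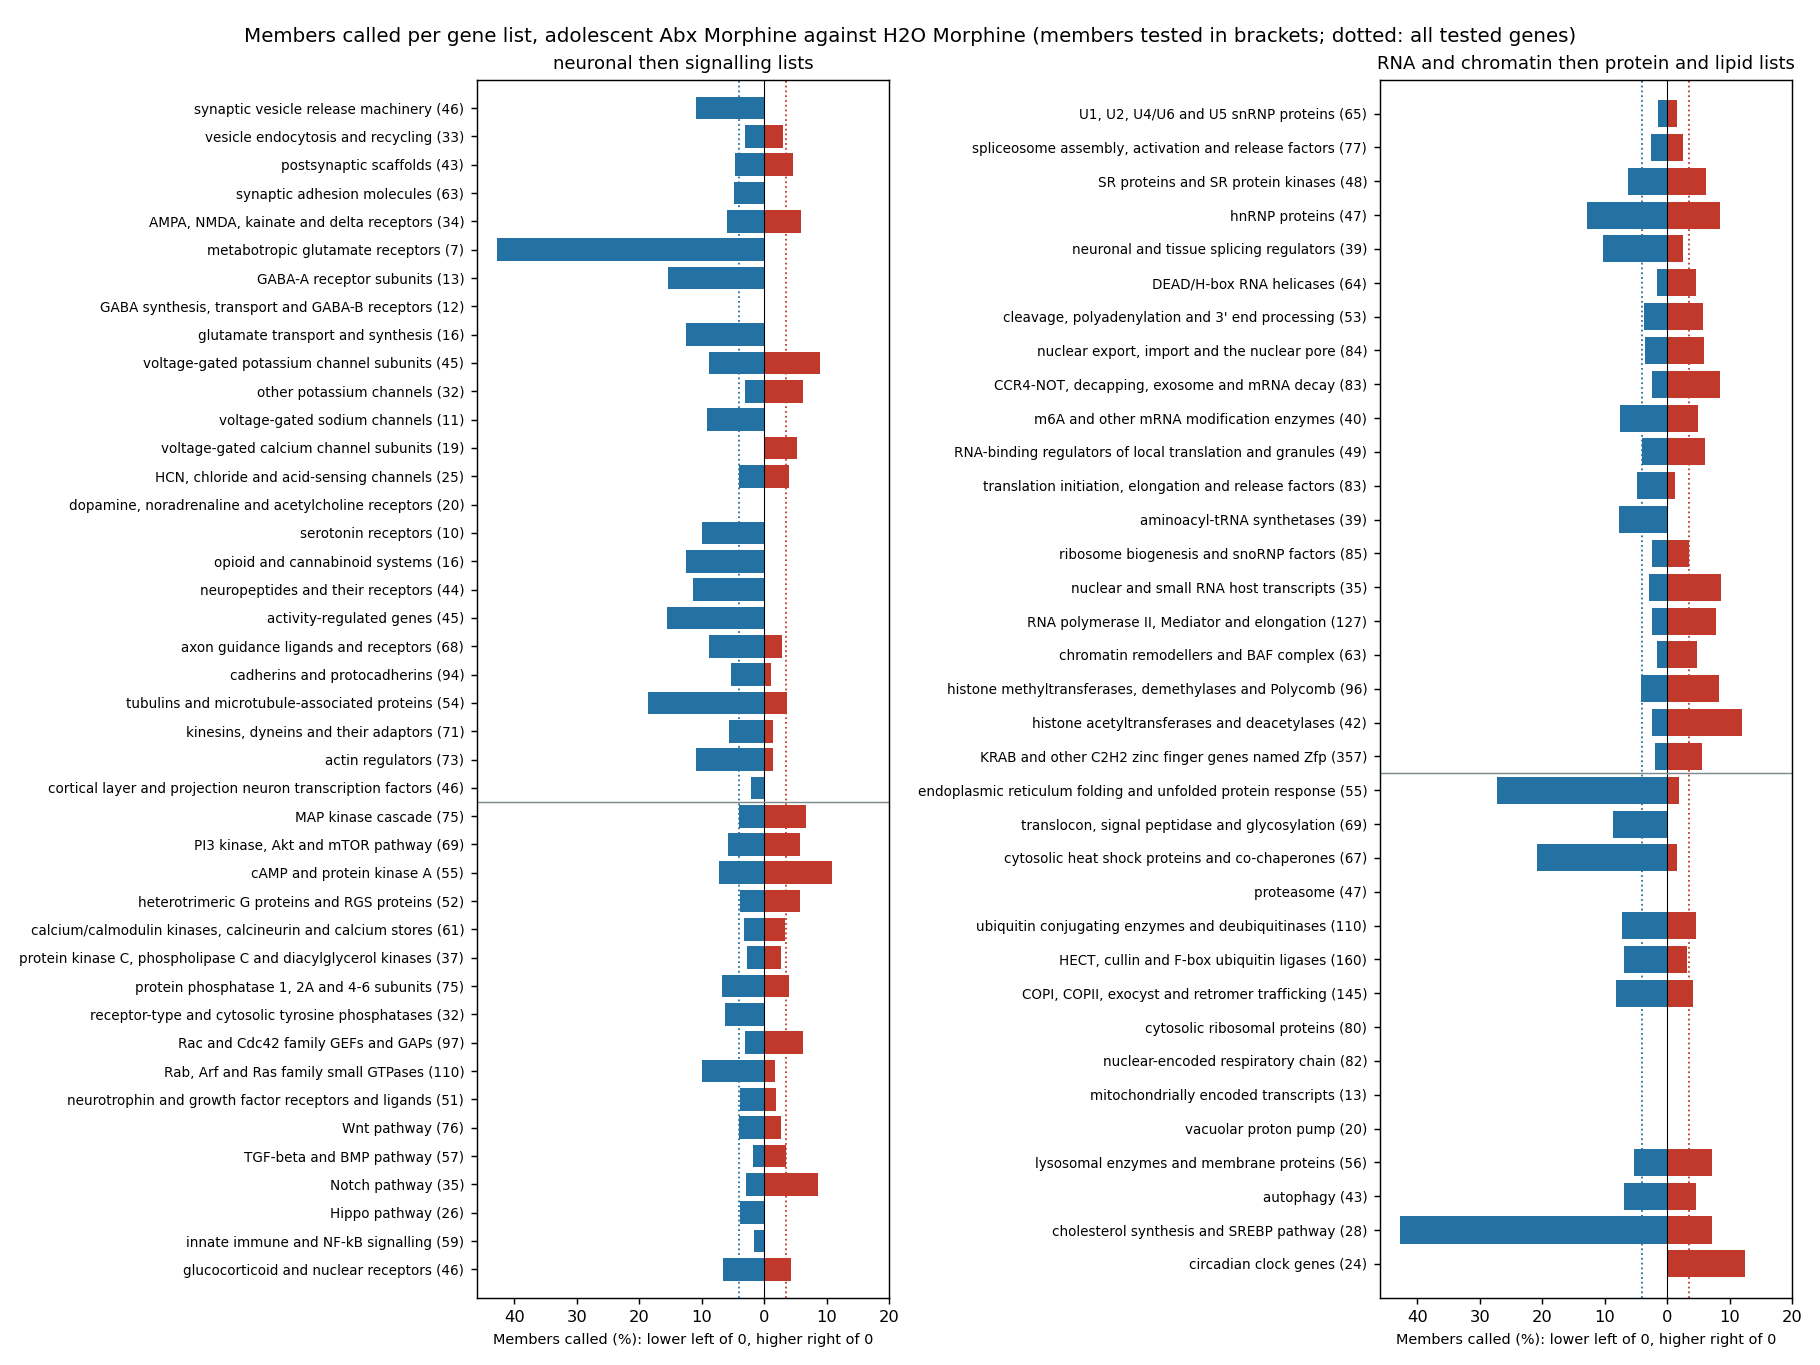
Percent of tested members called lower (blue, left of 0) or higher (red, right of 0) in adolescent Abx Morphine against H2O Morphine for each gene list, with the number tested in brackets and the share over all tested genes dotted (4.02% lower, 3.54% higher). More members were called lower than higher in 16 of 25 neuronal lists, more were called higher than lower in the 5 lists of chromatin, transcription and zinc finger genes, and 7 of the lists drawn have 0 calls.

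Signalling genes were called about as often as all genes, and in both directions. Counting each gene once, 41 of 1007 were higher (4.07%) and 48 lower (4.77%), or 46 higher and 42 lower with RLE size factors. The cyclic AMP pathway, through which opioid receptors act, held the largest share of the 17 signalling lists, with 6 higher and 4 lower of 55 (7 to 14 when 1 library was left out and 6 with 3 surrogate variables). Ppp1r1b, or DARPP-32, which inhibits protein phosphatase 1 once protein kinase A has phosphorylated it, had 62.7, 71.8, 67.6, 68.7 and 67.1 CPM in Abx Morphine, against 48.6, 43.5, 56.4, 46.3 and 45.2 CPM in H2O Morphine. Its groups did not overlap (log2 fold change of 0.49 ± 0.09 SE, edgeR adjusted p = 0.000271). The phosphodiesterase Pde10a, which breaks down cyclic nucleotides, was at 71.1 to 82.8 CPM in Abx Morphine, against 56.1 to 68.3 CPM in H2O Morphine (log2 fold change of 0.3 ± 0.07 SE, edgeR adjusted p = 0.00554). Both are also markers of striatal neurons, and the other 12 tested members of that marker list had 0 calls. The summed striatal markers were 423.3 to 444.4 CPM in Abx Morphine, against 411 to 427.6 CPM in H2O Morphine, and their part in both results was not tested.

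Some coactivators of CREB were called higher. Crtc3, which enters the nucleus to switch on CREB targets, had 16, 20.1, 24.2, 21.2 and 21.6 CPM in Abx Morphine, against 14.9, 13.7, 15.4, 15.2 and 15.7 CPM in H2O Morphine. Its groups did not overlap (log2 fold change of 0.46 ± 0.1 SE, edgeR adjusted p = 0.00247). Crtc2 was at 19.5 to 30.2 CPM in Abx Morphine, against 16 to 20.3 CPM in H2O Morphine (log2 fold change of 0.46 ± 0.11 SE, edgeR adjusted p = 0.00584) and the acetyltransferase Crebbp, which CREB recruits, at 87.6 to 96.8 CPM in Abx Morphine, against 71.6 to 84.2 CPM in H2O Morphine (log2 fold change of 0.23 ± 0.06 SE, edgeR adjusted p = 0.0153); both calls were lost with 3 surrogate variables. The regulatory subunit Prkar2b, which keeps protein kinase A inactive, was lower, at 50.1 to 70.2 CPM in Abx Morphine, against 70.5 to 80.5 CPM in H2O Morphine (log2 fold change of -0.34 ± 0.08 SE, edgeR adjusted p = 0.00278), and was lost in the same setting.

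Among G protein regulators Grk5, a kinase that desensitises receptors, was lower, at 19.2 to 31.6 CPM in Abx Morphine, against 35.4 to 43.1 CPM in H2O Morphine (log2 fold change of -0.62 ± 0.11 SE, edgeR adjusted p = 0.000452). Plcd3, a phospholipase that makes inositol trisphosphate, had 19.6, 25, 23, 21.1 and 17.2 CPM in Abx Morphine, against 12.6, 12, 12.5, 15.7 and 12.5 CPM in H2O Morphine. Every Abx Morphine library was above every H2O Morphine library (log2 fold change of 0.7 ± 0.11 SE, edgeR adjusted p = 2.12e-05). In the MAP kinase cascade, with 5 higher and 3 lower of 75 (2 without Abx Morphine replicate 2, 14 without Abx Morphine replicate 5 and 3 with 3 surrogate variables), the Raf scaffold Ksr1 was at 60.6 to 87.1 CPM in Abx Morphine, against 49 to 57.9 CPM in H2O Morphine (log2 fold change of 0.44 ± 0.09 SE, edgeR adjusted p = 0.000952). The PI3 kinase and mTOR pathway had 4 higher and 4 lower of 69 (2 without Abx Morphine replicate 2 and 3 with 3 surrogate variables). There the kinase Akt2 was lower, at 70.3 to 95.7 CPM in Abx Morphine, against 101.4 to 114.2 CPM in H2O Morphine (log2 fold change of -0.4 ± 0.07 SE, edgeR adjusted p = 0.000409), as was Rheb. Nprl3, a subunit of the complex that restrains mTOR complex 1, was higher (log2 fold change of 0.33 ± 0.09 SE, edgeR adjusted p = 0.0171), though its call was lost in 2 of those 10 fits.

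Small GTPases that were called were mostly lower, and regulators of the Rac and Cdc42 family went both ways. Rab, Arf and Ras family genes, the switches of membrane traffic, had 11 lower and 2 higher of 110, or 11.8% (8 without Abx Morphine replicate 2, 23 without Abx Morphine replicate 5 and 4 with 3 surrogate variables). Of all tested genes 7.56% were called, and 11.4% of those between 30 and 100 CPM, where the median of this list lay (39.7 CPM). Rab11a, of recycling endosomes, had 67.5, 49.7, 60.5, 63 and 72.4 CPM in Abx Morphine, against 79, 89.7, 86.1, 80.2 and 81.2 CPM in H2O Morphine (log2 fold change of -0.41 ± 0.08 SE, edgeR adjusted p = 0.00117). Exchange factors and GTPase-activating proteins for the Rac and Cdc42 family, the switches of the actin cytoskeleton, had 6 higher and 3 lower of 97, or 9.28% (5 without Abx Morphine replicate 2, 14 without Abx Morphine replicate 5 and 5 with 3 surrogate variables). Without replicate 5 of both groups that list had 8 higher and 6 lower. Arhgef10l, an exchange factor placed in that list, had 76.4, 103.4, 94.1, 92.8 and 77.2 CPM in Abx Morphine, against 55.1, 59.2, 61.8, 65.5 and 68.2 CPM in H2O Morphine. No library overlapped (log2 fold change of 0.52 ± 0.07 SE, edgeR adjusted p = 6.32e-06). Arhgef37 was at 2.91 to 4.17 CPM in Abx Morphine, against 0.362 to 2.69 CPM in H2O Morphine and the Rac exchange factor Tiam1 at 91.3 to 103.5 CPM in Abx Morphine, against 66.4 to 90.7 CPM in H2O Morphine, both without overlap and with calls that held throughout.

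Secreted signals changed in both directions. Wnt10b had 6.47, 12.2, 9.13, 9.3 and 2.67 CPM in Abx Morphine, against 1.75, 1.9, 2.42, 1.49 and 1.4 CPM in H2O Morphine, with the lowest Abx Morphine library just above the highest H2O Morphine library, and a log2 fold change of 2.14 ± 0.29 (SE; edgeR adjusted p = 4.33e-06). Wnt7b, a Wnt ligand of cortical neurons, was lower, at 42.7 to 64.4 CPM in Abx Morphine, against 68.2 to 89.2 CPM in H2O Morphine (log2 fold change of -0.55 ± 0.11 SE, edgeR adjusted p = 0.00217). The Wnt list as a whole had 2 higher and 3 lower of 76 (3 without Abx Morphine replicate 2), near the share of all genes. Nrg3, a neuregulin that binds ErbB4, was higher, at 56.9 to 65.8 CPM in Abx Morphine, against 45.3 to 51.2 CPM in H2O Morphine (log2 fold change of 0.33 ± 0.08 SE, edgeR adjusted p = 0.00505), and pleiotrophin, Ptn, lower, at 201.9 to 261.1 CPM in Abx Morphine, against 278.2 to 335.1 CPM in H2O Morphine (log2 fold change of -0.34 ± 0.07 SE, edgeR adjusted p = 0.00158). Of 59 innate immune and NF-kB genes 1 was called (0 without Abx Morphine replicate 2, 3 without Abx Morphine replicate 5 and 3 with 3 surrogate variables). It was the interferon gamma receptor subunit Ifngr2 (log2 fold change of -0.35 ± 0.09 SE, edgeR adjusted p = 0.0105), which lost its call without Abx Morphine replicate 2 and with 3 surrogate variables.

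Among RNA and chromatin genes more were called higher than lower. Counting each gene once, 83 of 1502 were higher (5.53%) and 51 lower (3.4%), with a median log2 fold change of 0.01. More were higher also with RLE size factors (92 higher, 44 lower), with the GC and length offset (99 higher, 33 lower) and without replicate 5 of both groups (102 higher, 78 lower). The median level of these genes was 30.3 CPM.

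Of 65 proteins of the spliceosomal ribonucleoproteins 1 was higher and 1 lower, or 3.08% (0 without H2O Morphine replicate 1, 5 without Abx Morphine replicate 5 and 1 with 3 surrogate variables). Of 77 spliceosome assembly factors 2 were higher and 2 lower, or 5.19% (2 without H2O Morphine replicate 2, 11 without Abx Morphine replicate 5 and 2 with 3 surrogate variables), beside 7.56% of all tested genes. SR proteins and their kinases had 3 higher and 3 lower of 48 (3 without H2O Morphine replicate 2 and 13 without Abx Morphine replicate 5). The hnRNP list had 4 higher and 6 lower of 47 (6 without Abx Morphine replicate 1), but 6 higher and 1 lower with the GC and length offset. Of its members 97.9% were above 30 CPM, a range in which 11.4% to 11.5% of all tested genes were called. The cold-inducible RNA-binding proteins Rbm3 and Cirbp were higher, and Cirbp had 76.4, 86.6, 95.4, 85.7 and 50.2 CPM in Abx Morphine, against 49.3, 47.1, 48.9, 47.8 and 45.4 CPM in H2O Morphine. The groups did not overlap (log2 fold change of 0.73 ± 0.1 SE, edgeR adjusted p = 4.33e-06). Rbm3 had a log2 fold change of 0.63 ± 0.08 (SE; edgeR adjusted p = 4.28e-07) and overlaps its antisense gene Rbm3os. The abundant core members were lower: Hnrnpc was at 90.7 to 127.1 CPM in Abx Morphine, against 126.8 to 150.9 CPM in H2O Morphine (log2 fold change of -0.3 ± 0.07 SE, edgeR adjusted p = 0.00298) and Hnrnpa2b1 at 245.0 to 271.7 CPM in Abx Morphine, against 288.3 to 311.8 CPM in H2O Morphine (log2 fold change of -0.21 ± 0.05 SE, edgeR adjusted p = 0.00584). The first of these was lost with 3 surrogate variables and the second with the GC and length offset, and both have close relatives in the genome. Tra2a, an SR-like splicing activator, was lower, at 31.2 to 42.3 CPM in Abx Morphine, against 44.2 to 54 CPM in H2O Morphine (log2 fold change of -0.42 ± 0.08 SE, edgeR adjusted p = 0.000863), and held throughout. Srrm4, which includes neuronal microexons, was higher, at 63.2 to 80.0 CPM in Abx Morphine, against 48.7 to 72.2 CPM in H2O Morphine (log2 fold change of 0.37 ± 0.1 SE, edgeR adjusted p = 0.0119), with overlap and a call lost with 3 surrogate variables.

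Transport and decay factors changed in both directions. Of 84 genes of nuclear transport, 5 were higher and 3 lower (4 without Abx Morphine replicate 3 and 16 without Abx Morphine replicate 5). Exportin 1, Xpo1, which carries proteins and some RNAs out of the nucleus, had 56.5, 47.7, 53.1, 49.3 and 60.8 CPM in Abx Morphine, against 74.6, 84.2, 75.1, 71 and 71.7 CPM in H2O Morphine. All Abx Morphine libraries were lower (log2 fold change of -0.49 ± 0.07 SE, edgeR adjusted p = 5.32e-06). The importin Ipo7 was lower (log2 fold change of -0.35 ± 0.08 SE, edgeR adjusted p = 0.00217), while Xpo6, the exporter of actin, was higher, at 102.9 to 111.3 CPM in Abx Morphine, against 84 to 93.3 CPM in H2O Morphine (log2 fold change of 0.29 ± 0.06 SE, edgeR adjusted p = 0.000707). The decay list had 7 higher and 2 lower of 83 (5 without H2O Morphine replicate 5, 14 without Abx Morphine replicate 5 and 4 with 3 surrogate variables). The exosome nuclease Dis3 was at 16.4 to 22.8 CPM in Abx Morphine, against 11.9 to 16 CPM in H2O Morphine (log2 fold change of 0.51 ± 0.1 SE, edgeR adjusted p = 0.0012), and Dicer1, which cuts microRNA precursors, at 60.5 to 74.9 CPM in Abx Morphine, against 53.9 to 62 CPM in H2O Morphine (log2 fold change of 0.26 ± 0.06 SE, edgeR adjusted p = 0.00574), with overlap between groups for the second only.

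Enzymes of mRNA methylation split. Pcif1, which adds a methyl group to the adenosine next to the cap, had 73.1, 88.4, 82.4, 79 and 71.2 CPM in Abx Morphine, against 59.2, 59.9, 58.5, 62.6 and 63.3 CPM in H2O Morphine. Every Abx Morphine library was higher (log2 fold change of 0.38 ± 0.06 SE, edgeR adjusted p = 3.8e-05). Mettl16, which methylates the transcript of a methionine adenosyltransferase, had 15.6, 17.9, 15.5, 14.4 and 18.5 CPM in Abx Morphine, against 26.3, 28.6, 24.7, 25.1 and 26.1 CPM in H2O Morphine. It was lower without overlap (log2 fold change of -0.68 ± 0.09 SE, edgeR adjusted p = 4.33e-06). The list holding both had 2 higher and 3 lower of 40.

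In translation, Cpeb1, which holds dendritic mRNAs and regulates their poly(A) tails, had 107.8, 122.9, 106.6, 116.4 and 69.6 CPM in Abx Morphine, against 72.5, 72.5, 73.1, 67.7 and 63.3 CPM in H2O Morphine. Replicate 5 of Abx Morphine lay within the H2O Morphine range, and the other 4 lay above it (log2 fold change of 0.58 ± 0.1 SE, edgeR adjusted p = 0.000245). Caprin1, a protein of RNA granules, was lower, at 133.8 to 186.0 CPM in Abx Morphine, against 189.1 to 204.1 CPM in H2O Morphine (log2 fold change of -0.37 ± 0.07 SE, edgeR adjusted p = 0.000546). Eif4g2, an initiation factor that bypasses the cap-binding protein, was lower (log2 fold change of -0.28 ± 0.06 SE, edgeR adjusted p = 0.00158), as was Abce1, which recycles ribosomes (log2 fold change of -0.32 ± 0.08 SE, edgeR adjusted p = 0.00514). Translation factors as a list had 1 higher and 4 lower of 83 (13 without Abx Morphine replicate 5), while 80 cytosolic ribosomal protein genes had 0 calls.

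The host transcript of a microRNA gene was among the most significant changes. Mir9-3hg had 51.2, 60.1, 60.3, 53.5 and 46.5 CPM in Abx Morphine, against 35, 34.8, 33.3, 32.6 and 32.7 CPM in H2O Morphine. The lowest Abx Morphine library stood well above the highest H2O Morphine library (log2 fold change of 0.69 ± 0.08 SE, edgeR adjusted p = 4.28e-07). The host carries miR-9, a brain microRNA that represses neural progenitor genes, and its mature forms are printed to show what the transcript encodes, with the seed (bases 2 to 8) in capitals. Poly(A) libraries read the host and not the mature microRNA. Mir22hg was higher too, at 19.4 to 24.2 CPM in Abx Morphine, against 15.2 to 18.9 CPM in H2O Morphine (log2 fold change of 0.37 ± 0.09 SE, edgeR adjusted p = 0.00488), with a call lost with 3 surrogate variables. The sequences are from RefSeq (GRCm38.p6, chromosomes 7 and 11).
mmu-miR-9-5p, from Mir9-3: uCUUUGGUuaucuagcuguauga
mmu-miR-9-3p, from Mir9-3: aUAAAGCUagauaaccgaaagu
mmu-miR-22-3p, from Mir22: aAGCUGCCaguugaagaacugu

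Calls in the transcription and chromatin lists were more often higher than lower. Their shares stand beside 7.56% of all tested genes called in either direction. RNA polymerase II, Mediator and elongation genes had 10 higher and 3 lower of 127, or 10.2% (7 without Abx Morphine replicate 2, 23 without Abx Morphine replicate 5 and 7 with 3 surrogate variables). The list as a whole did not lean, with 63 positive and 64 negative fold changes. Chromatin remodellers had 3 higher and 1 lower of 63, or 6.35% (1 without Abx Morphine replicate 3, 10 without Abx Morphine replicate 5 and 2 with 3 surrogate variables). Without replicate 5 of both groups they had 4 higher and 4 lower. The bromodomain protein Brd2, which reads acetylated histones, was at 200.4 to 262.2 CPM in Abx Morphine, against 185.9 to 205.3 CPM in H2O Morphine (log2 fold change of 0.23 ± 0.06 SE, edgeR adjusted p = 0.0058), and Paf1, of the elongation complex named after it, at 45.8 to 59.9 CPM in Abx Morphine, against 43.1 to 45.9 CPM in H2O Morphine (log2 fold change of 0.29 ± 0.07 SE, edgeR adjusted p = 0.00612). The Mediator kinase subunit Med12 was at 28.2 to 47 CPM in Abx Morphine, against 21.4 to 27.3 CPM in H2O Morphine (log2 fold change of 0.74 ± 0.15 SE, edgeR adjusted p = 0.00207), lost with 3 surrogate variables. Histone methyltransferases, demethylases and Polycomb proteins had 8 higher and 4 lower of 96, or 12.5% (7 without Abx Morphine replicate 3, 20 without Abx Morphine replicate 5 and 7 with 3 surrogate variables). Setd1a, which methylates histone H3 at promoters, was at 23.7 to 33.5 CPM in Abx Morphine, against 19 to 22.5 CPM in H2O Morphine (log2 fold change of 0.54 ± 0.1 SE, edgeR adjusted p = 0.000568). Cbx7, a Polycomb reader, was at 44.6 to 51.8 CPM in Abx Morphine, against 37.1 to 40.8 CPM in H2O Morphine (log2 fold change of 0.32 ± 0.07 SE, edgeR adjusted p = 0.00158).

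Acetyltransferases and deacetylases had 5 higher and 1 lower of 42, or 14.3% (3 without Abx Morphine replicate 2 and 2 with 3 surrogate variables). The lower gene was Hdac9, a class IIa deacetylase, with 66.4, 54.6, 57.6, 54.7 and 64.5 CPM in Abx Morphine, against 79.8, 77.4, 70.3, 70.6 and 78.3 CPM in H2O Morphine. The groups did not overlap (log2 fold change of -0.34 ± 0.07 SE, edgeR adjusted p = 0.00252). Zinc finger genes named Zfp, many of which silence transposons through Trim28, had 20 higher and 7 lower of 357, or 7.56% (14 without Abx Morphine replicate 3, 45 without Abx Morphine replicate 5 and 14 with 3 surrogate variables). That is the share called among all tested genes, and 187 of the fold changes were positive and 170 negative. Zfp46 was at 70.2 to 101.1 CPM in Abx Morphine, against 57.7 to 68.6 CPM in H2O Morphine (log2 fold change of 0.5 ± 0.07 SE, edgeR adjusted p = 5.25e-06), Zfp777 at 33.1 to 46.5 CPM in Abx Morphine, against 25 to 31.9 CPM in H2O Morphine (log2 fold change of 0.46 ± 0.08 SE, edgeR adjusted p = 7.27e-05) and Zfp950 at 15.2 to 21.4 CPM in Abx Morphine, against 25.5 to 35.1 CPM in H2O Morphine (log2 fold change of -0.69 ± 0.1 SE, edgeR adjusted p = 1.26e-05). Trim28 itself was higher, at 110.2 to 139.2 CPM in Abx Morphine, against 102.9 to 113.0 CPM in H2O Morphine (log2 fold change of 0.23 ± 0.06 SE, edgeR adjusted p = 0.0103).

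**Figure D4:**
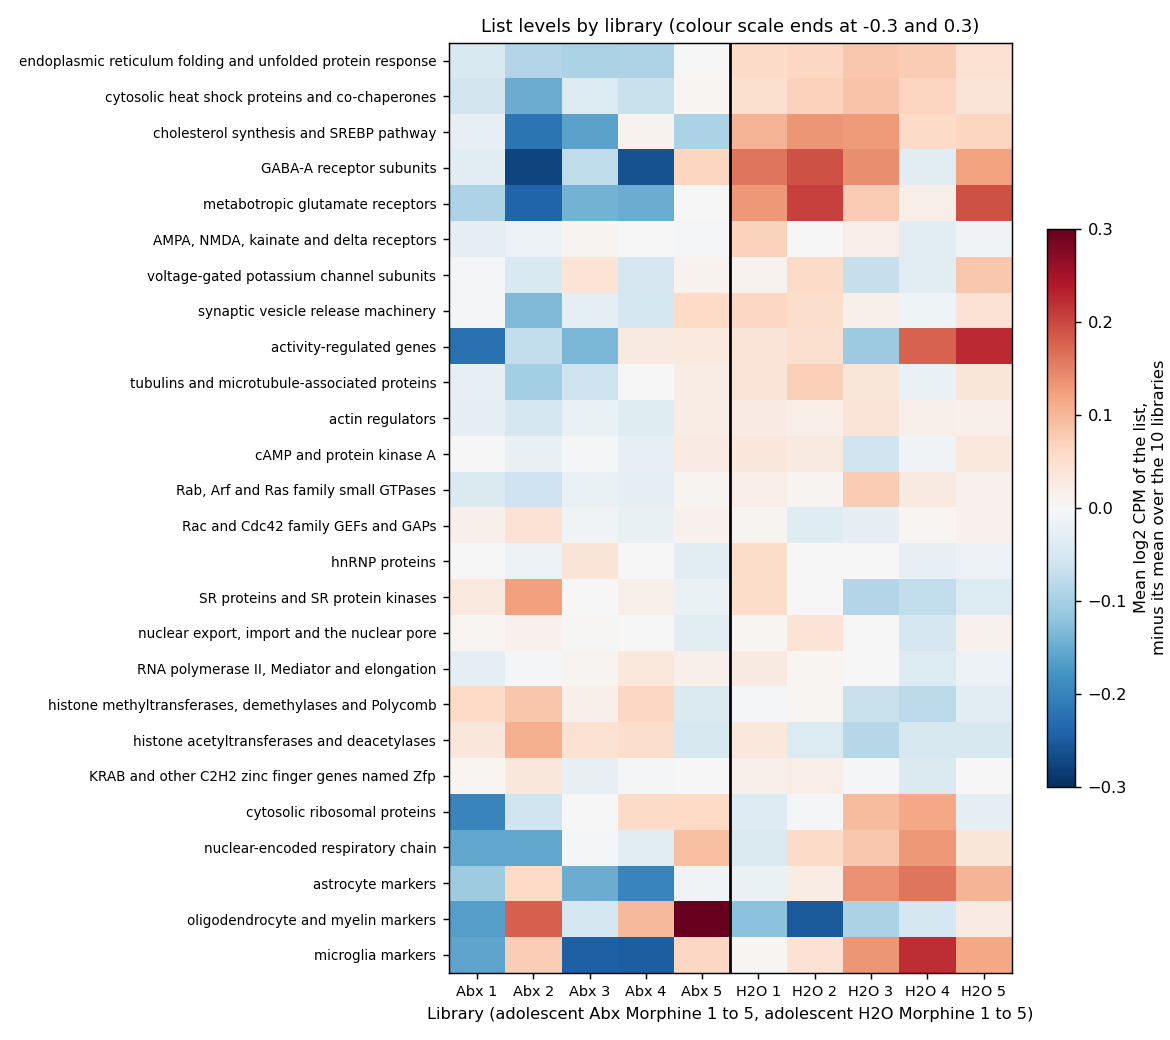
Mean log2 CPM of each list in each library, minus its mean over the 10 libraries, for adolescent Abx Morphine replicates 1 to 5 (left) and H2O Morphine replicates 1 to 5 (right). The endoplasmic reticulum list is lower in Abx Morphine replicates 1 to 4 than in every H2O Morphine library, with Abx Morphine replicate 5 between them, and the oligodendrocyte list is highest in Abx Morphine replicate 5.

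Membrane traffic genes were more often called lower than higher. The genes of coats, exocyst and retromer had 12 lower and 6 higher of 145, or 12.4% (7 without Abx Morphine replicate 3 and 6 with 3 surrogate variables). Of all tested genes 7.56% were called. Above 30 CPM, where 73.1% of these members lay, 11.4% to 11.5% of all tested genes were called, more of them lower. With the GC and length offset the list had 8 lower and 5 higher. Ap3s1, of the coat that forms lysosomal and some synaptic vesicles, was at 36.1 to 47.5 CPM in Abx Morphine, against 50.8 to 55.7 CPM in H2O Morphine (log2 fold change of -0.35 ± 0.07 SE, edgeR adjusted p = 0.00074), and the tethering subunit Trappc13 at 35.7 to 52.7 CPM in Abx Morphine, against 52.1 to 61 CPM in H2O Morphine (log2 fold change of -0.41 ± 0.08 SE, edgeR adjusted p = 0.000346). Ubxn2b, a cofactor of the unfolding enzyme p97, had 39.9, 34.8, 30.6, 34.6 and 52.8 CPM in Abx Morphine, against 63.9, 61.3, 64, 59.1 and 60.4 CPM in H2O Morphine. Its groups did not overlap (log2 fold change of -0.68 ± 0.09 SE, edgeR adjusted p = 1.75e-06). Klhl40, a cullin adaptor, was higher, at 9.08 to 14.6 CPM in Abx Morphine, against 4.84 to 6.94 CPM in H2O Morphine (log2 fold change of 1.0 ± 0.14 SE, edgeR adjusted p = 4.33e-06), and the mitochondrial quality kinase Pink1 at 278.4 to 351.0 CPM in Abx Morphine, against 244.5 to 289.3 CPM in H2O Morphine (log2 fold change of 0.27 ± 0.06 SE, edgeR adjusted p = 0.00384). In autophagy the conjugation factor Atg12 and the scaffold Rb1cc1 were lower, with log2 fold changes of -0.31 ± 0.07 and -0.29 ± 0.07 (SE).

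No proteasome, respiratory chain or proton pump gene was called by edgeR. The count was 0 of 47 proteasome genes, 0 of 82 nuclear-encoded respiratory chain genes, 0 of 13 mitochondrially encoded transcripts and 0 of 20 vacuolar proton pump genes. Fold changes without a call were more often negative. They were negative for 69 and positive for 13 respiratory chain genes, and negative for 16 and positive for 4 proton pump genes. Both lists had a median log2 fold change of -0.1, against 0.09 and 0.11 under saline. By library, the mean log2 CPM of each list, minus its mean over the 10 libraries, overlapped between groups. For the respiratory chain it was -0.155 to 0.09 in Abx Morphine and -0.043 to 0.129 in H2O Morphine. For the proton pump it was -0.12 to 0.011 in Abx Morphine and -0.033 to 0.056 in H2O Morphine. Proteasome genes had 31 negative and 16 positive, with a median of -0.03. With 1 library left out, the respiratory chain list had up to 5 calls (without Abx Morphine replicate 5), and the proteasome and ribosomal lists up to 1 each. Limma-voom called 7 respiratory chain genes, 1 proteasome gene and 1 ribosomal protein gene, DESeq2 called 0 in each of these lists, and the GC and length offset gave 1 call each for the proteasome, the respiratory chain and the proton pump. These counts stand beside 1351 calls by edgeR and 4119 genes at an unadjusted p under 0.05.

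Markers of other cells differed between the groups. The summed oligodendrocyte markers were 1616.8 to 2463.4 CPM in Abx Morphine, against 1503.3 to 1814.1 CPM in H2O Morphine, highest in Abx Morphine replicate 5. Of 20 markers 2 were called higher (0 without Abx Morphine replicate 2 and 1 with 3 surrogate variables). They were Tspan2, lost without Abx Morphine replicate 2, and Myrf, called in 3 of the 10 fits that left out 1 library. Microglia markers summed to 487 to 612.4 CPM in Abx Morphine and 556.8 to 658.2 CPM in H2O Morphine, with 4 of 20 called lower (1 without Abx Morphine replicate 4 and 2 with 3 surrogate variables). Astrocyte markers were 4446 to 5573.4 CPM in Abx Morphine and 4992.6 to 5625.3 CPM in H2O Morphine, with 3 of 16 lower (1 without H2O Morphine replicate 3). Endothelial markers were 733.9 to 884 CPM in Abx Morphine and 836.1 to 1020.2 CPM in H2O Morphine, with 2 of 17 lower (1 without H2O Morphine replicate 4 and 4 without Abx Morphine replicate 5). Oligodendrocyte precursor markers were 573.7 to 673.7 CPM in Abx Morphine and 656.2 to 686.5 CPM in H2O Morphine, and mural, fibroblast and leptomeningeal markers 973.2 to 1264.4 CPM in Abx Morphine and 860.3 to 1510.5 CPM in H2O Morphine. Excitatory markers had 1 call in 15 (5 without Abx Morphine replicate 5), and inhibitory markers 0 in 18, the latter at 1845.3 to 2004.4 CPM in Abx Morphine and 1815 to 1989.7 CPM in H2O Morphine. The part of cell make-up in the gene groups above was not tested. Reads of overlapping or antisense genes cannot be told apart without a stated strand setting, which leaves a doubt for Adcy3, Bdnf, Brd2, Cap1, Cbx7, Ddit3, Dis3, Grm7, Hsp90b1, Klhl40, Ksr1, Nprl3, Oprm1, Pcif1, Ppfia2, Ppp1r1b, Rb1cc1, Srebf1, Srpr, Srrm4, Tuba1b, Tubb4b and Wnt7b.

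Saline-injected adolescents gave few calls. There edgeR called 7 of 17880 genes between Abx Saline and H2O Saline, or 0.0391%, with 1744 at an unadjusted p under 0.05. That count was 0 without Abx Saline replicate 5 and 13 without H2O Saline replicate 1. Of the 1351 genes called under morphine, 757 (56%) had the same direction under saline, against 49.6% of all tested genes; these groups share no library with those under morphine. The endoplasmic reticulum list had a median log2 fold change of -0.02 under saline, the activity-regulated list 0.08 and the GABA-A list 0.08. A test of the difference itself, morphine minus saline, called 221 genes (1.24%) and uses the same morphine libraries as the main comparison. Its count was 19 without Abx Morphine replicate 2, 31 without Abx Morphine replicate 3, 136 without Abx Morphine replicate 4 and 748 without Abx Morphine replicate 5. It was 51, 69 and 129 without H2O Morphine replicates 2, 3 and 5. In the saline groups it was 30 and 28 without Abx Saline replicates 3 and 4, and 350 and 28 without H2O Saline replicates 3 and 5, and 17 genes were called without each of its 20 libraries in turn.

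Of the genes named here, Bdnf had the smallest p in that test. Its antibiotic effect differed by -0.93 ± 0.15 (SE; edgeR adjusted p = 0.00166) between morphine and saline, with 0.27 ± 0.1 (SE; edgeR adjusted p = 0.363) under saline. Rheb differed by -0.53 ± 0.1 (SE; edgeR adjusted p = 0.00878), Crtc3 by 0.74 ± 0.14 (SE; edgeR adjusted p = 0.00878) and Plcd3 by 0.74 ± 0.15 (SE; edgeR adjusted p = 0.0118). The chaperones Hspa5 and Ppid differed by -0.53 ± 0.1 (SE; edgeR adjusted p = 0.0103) and -0.51 ± 0.1 (SE; edgeR adjusted p = 0.00904). Arhgef10l differed by 0.53 ± 0.11 (SE; edgeR adjusted p = 0.0118). These 7 genes were among the 17. By contrast Rbm3 (0.29 ± 0.08 SE, edgeR adjusted p = 0.138 under saline), Cirbp (0.3 ± 0.1 SE, edgeR adjusted p = 0.269), Klhl40 (0.61 ± 0.15 SE, edgeR adjusted p = 0.0953) and Zfp950 (-0.5 ± 0.1 SE, edgeR adjusted p = 0.0365) pointed the same way under saline, and their differences between injections were not called.

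In adults under morphine the same genes mostly had the same sign. In adults edgeR called 5 genes between Abx Morphine and H2O Morphine (0.028%), with 1434 at an unadjusted p under 0.05, and 0 to 3 genes when 1 library was left out. Of the 1351 adolescent calls, 1225 (90.7%) had the same sign in adults, where 65.8% of all tested genes did, and no library is shared. Among the 268 calls that held throughout, 259 (96.6%) had the same sign. The median adult log2 fold change was 0.11 for genes called higher in adolescents and -0.14 for those called lower, against 0.39 and -0.33 in adolescents, where the calls were made. The endoplasmic reticulum list had a median of -0.06 in adults and the cholesterol list -0.12.

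Adult values of the leading genes varied widely. Etnppl, an enzyme of phosphoethanolamine breakdown in astrocytes, had 1.09 ± 0.2 (SE; edgeR adjusted p = 0.031) in adults and a log2 fold change of 1.3 ± 0.19 (SE; edgeR adjusted p = 6.46e-05) in adolescents. Calr was at -0.34 ± 0.07 (SE; edgeR adjusted p = 0.031) and Cirbp at 0.49 ± 0.1 (SE; edgeR adjusted p = 0.0414) in adults. Wnt10b was at 0.84 ± 0.3 (SE; edgeR adjusted p = 0.414), Bdnf at -0.28 ± 0.11 (SE; edgeR adjusted p = 0.448) and Crtc3 at 0.04 ± 0.1 (SE; edgeR adjusted p = 0.96). A test of adolescent minus adult effects called 1 gene (0.00559%), Plcd3, at 0.79 ± 0.15 (SE; edgeR adjusted p = 0.0447), with -0.1 ± 0.11 (SE; edgeR adjusted p = 0.88) in adults. DESeq2 and limma-voom called 1 gene each there, 1010 genes had an unadjusted p under 0.05, and leaving out each of the 20 libraries in turn gave 1 call in 3 fits and 0 calls in 17.

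**Figure D5:**
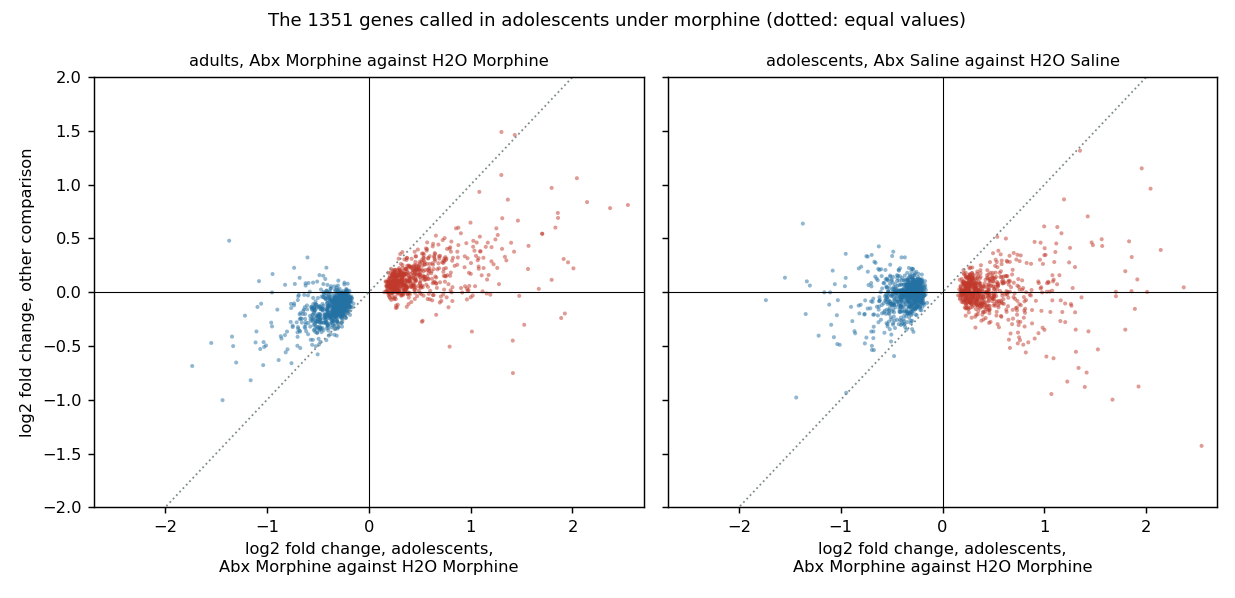
log2 fold changes of the 1351 genes called in adolescents under morphine (horizontal axis, Abx Morphine against H2O Morphine) set against those in adults under morphine (left) and in adolescents under saline (right), with genes called higher in red and lower in blue and equal values dotted. In adults 1225 of 1351 points lie in the quadrants of equal sign, and under saline 757 do.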

How the data were processed

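RNA of mouse brain was sequenced as polyadenylated libraries. The labels' protocols name the RNeasy Mini Kit for extraction and an ABclonal kit for the libraries. Per the submitters' processing notes, reads were processed with STAR 2.7.10a and DESeq2 on the mm10 genome. The sources used here give neither the antibiotics, the strand setting nor the annotation. The deposited values are raw read counts per gene, given by the authors as 1 table of all 40 libraries, with no row outside named genes. Gene IDs were matched to the RefSeq table of GRCm38.p6 for names (52073 of 56980). GC content and exon length came from GENCODE transcripts and annotation, and were found for 17448 of 17880 tested genes.

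Counts were tested with edgeR 4.0.16 in R 4.3.3. Genes with enough reads were kept (filterByExpr, minimum count 10, minimum total 15), leaving 17880, and scaled by TMM. The robust quasi-likelihood model was fitted to all 40 libraries with 1 coefficient a group, and p-values were adjusted over all tested genes by Benjamini-Hochberg, with calls at 0.05. SE is the log2 fold change divided by the square root of F. CPM is not divided by gene length, so levels are compared between libraries and never between genes. The spread between libraries of a group was 9.14% (biological coefficient of variation). A count of 3 stands as the lowest level told from 0, covering counting error only. Within groups the chi-square per gene between libraries was 2.54 to 10.23, above sampling noise in every pair, so no library was counted as a duplicate. The test was run on simulated data beforehand.

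Gene lists and promoters are described by counts and medians beside those over all tested genes. The comparison, the lists and the named genes were chosen with earlier results of these data known. Named were up to 8 genes higher and 8 lower with the smallest p and a mean of 1 CPM or more, up to 4 called members of each list by p, and the smallest-p member of a list with no call. Not every gene named by that rule is described, and outside it Adcy3, Atf4, Canx, Cdnf, Crtc2, Ddit3, Etnppl, Hsp90b1, Hspa4, Lgi3, Mlec, Oprm1, Pdia4, Pink1, Ppid, Sdf2l1, Serpinh1, Srebf1, Tiam1, Trim28, Tubb2a and Xbp1 were chosen after their values were seen. Alternatives were RLE size factors, no filter or a stricter one (1 CPM in 5 libraries), the compared groups alone, the replicate number as a block, 3 surrogate variables (sva 3.50.0), an offset for GC content and length alone and with the block, limma-voom (limma 3.58.1), DESeq2 1.42.0 and leaving out each library. Leaving out replicate 5 of both groups was added after seeing the data. Outlying libraries were looked for by Dixon's ratio at 0.71 for 5 samples.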

Additional observations from a re-analysis of the deposited data

Results flagged for a closer look

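In 12 of 230 groups of 5 (115 named genes, each in 2 groups) 1 library lay far from the other 4, by a gap that chance alone gives in about 1 of 20 groups, so about 11.5 would be seen by chance. In Abx Morphine these were Ppid (51.4 CPM in replicate 5, the highest, next to 41.2 CPM), Grm3 (59.5 CPM in replicate 5, the highest, next to 47.7 CPM), Grin1 (699.0 CPM in replicate 5, the lowest, next to 805.2 CPM), Homer1 (223.8 CPM in replicate 5, the highest, next to 179.9 CPM) and Setd1a (23.7 CPM in replicate 5, the lowest, next to 31.6 CPM). In H2O Morphine they were Hsp90b1 (199.6 CPM in replicate 4, the lowest, next to 209.6 CPM), Scn2b (294.4 CPM in replicate 4, the lowest, next to 341.4 CPM), Tubb4b (236.1 CPM in replicate 4, the lowest, next to 258.7 CPM), Plcd3 (15.7 CPM in replicate 4, the highest, next to 12.6 CPM), Nprl3 (33.1 CPM in replicate 1, the highest, next to 28.3 CPM), Hnrnpc (150.9 CPM in replicate 3, the highest, next to 133.4 CPM) and Med12 (27.3 CPM in replicate 1, the highest, next to 23 CPM). In Abx Morphine every one of these libraries was replicate 5.

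The antibiotic effect differed between morphine and saline in adolescents, by the edgeR test of that difference, for 40 of the genes named above. Over all tested genes 221 were called (1.24%). Most named genes were chosen by their p in the main comparison, which shares its morphine libraries with this test, so the 40 cannot be set against that share. Of all genes 17 kept the call without each of the 20 libraries in turn, and 14 were called with 3 surrogate variables. The difference, morphine minus saline, was positive on the log2 scale for Crtc3 0.74, Crtc2 0.62, Plcd3 0.74, Arhgef10l 0.53, Wnt10b 1.75, Srrm4 0.52, Dis3 0.62, Dicer1 0.35, Pcif1 0.34, Mir9-3hg 0.48, Brd2 0.29, Med12 0.82, Zfp46 0.48 and Etnppl 1.07. It was negative for Calr -0.4, Pdia6 -0.47, Hspa5 -0.53, Pdia3 -0.34, Hsp90b1 -0.34, Hsph1 -0.53, Ppid -0.51, Stard4 -0.61, Gabra2 -0.37, Homer1 -0.64, Bdnf -0.93, Rheb -0.53, Nptx2 -0.53, Adcyap1 -0.77, Cdh10 -0.48, Tubb3 -0.35, Tuba1b -0.3, Tubb4b -0.39, Tubb2a -0.42, Ptn -0.4, Xpo1 -0.37, Ipo7 -0.4, Hdac9 -0.42, Trappc13 -0.43, Ap3s1 -0.35 and Ubxn2b -0.47. Between ages the antibiotic effect under morphine differed for Plcd3, by 0.79 on the log2 scale, adolescent minus adult.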

How the results depend on the processing

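The counts of calls depended on single libraries and on the model. For Abx Morphine against H2O Morphine in adolescents, 633 genes were called higher and 718 lower. With RLE size factors they were 721 and 645, with no filter 630 and 694, with the stricter filter 752 and 654, with the compared groups alone 828 and 740, with DESeq2 785 and 733, and with the GC and length offset 593 and 709. They moved beyond 1.5 times with 3 surrogate variables (297 higher, 365 lower) and limma-voom (1176 higher, 1419 lower). Leaving out 1 library gave 317 to 1037 higher and 324 to 1223 lower, and leaving out replicate 5 of both groups, chosen after seeing the data, 854 higher and 996 lower.

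The difference morphine minus saline, with 221 calls, had 485 with no filter, 130 with the compared groups alone, 14 with 3 surrogate variables, 457 with limma-voom, 457 with DESeq2 and 19 to 748 with 1 library left out. The adolescent minus adult difference, with 1 call, had 4 with no filter, 0 with the stricter filter, the compared groups alone, the replicate block, 3 surrogate variables, the GC and length offset or both of the last with the block, and 0 to 1 with 1 library left out. Abx Saline against H2O Saline, with 7 calls, had 70 with no filter, 4 with the compared groups alone, 11 with the replicate block, 136 with 3 surrogate variables, 17 with the block and the GC and length offset, 17 with limma-voom, 45 with DESeq2 and 0 to 13 with 1 library left out. Adult Abx Morphine against H2O Morphine, with 5 calls, had 44 with no filter, 3 with the compared groups alone, 8 with the replicate block, 69 with 3 surrogate variables, 9 with the block and the GC and length offset, 12 with limma-voom, 21 with DESeq2 and 0 to 3 with 1 library left out. The cause of these moves was not tested, beyond the fewer samples or other set of genes of some settings.

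Whether replicate numbers pair the samples is not stated. Over 11367 genes, deviations from the group means of same-numbered Abx Morphine and H2O Morphine libraries had correlations of 0.131, -0.083, 0.044, -0.095 and 0.208. Between different-numbered libraries they ran from -0.244 to 0.156, so the value for replicate 5 of both groups, 0.208, was the largest. These mixed values do not settle whether the numbers pair samples. With the replicate block the adolescent morphine comparison had 651 higher and 718 lower calls, or 610 and 718 with the GC and length offset added, and the difference morphine minus saline had 232.

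Of 2300 pairs of a named gene and another setting, 2236 kept direction and call, 60 lost the call, 4 gained one and 0 reversed, and 84 of 115 named genes never changed. Depth limits low genes, of which 1.45% were called under 1 CPM.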
